A study of Mus musculus with 2 samples.

Results

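The genes described here are the effector proteins that natural killer (NK) cells of the uterus store in their cytoplasmic granules: 8 granzymes (Gzma, Gzmb, Gzmc, Gzmd, Gzme, Gzmf, Gzmg and Gzmk), perforin (Prf1) and serglycin (Srgn). They were found as every probe set whose platform annotation names at least 1 of these 10 genes, which gave 13 of the 22626 probe sets that are no controls and covered all 10 genes, of 13319 named on the array. Of the 13, 12 name a single gene, and 1 names Gzme and Gzmd together. RNA came from implantation sites, dissected pieces of pregnant uterus with the conceptus and the decidua around it, on day 8 of pregnancy, and was hybridised to Affymetrix mouse arrays. The first group was homozygous Cbs null females, which lack cystathionine beta-synthase, the enzyme that joins homocysteine to serine. The second was females whose genotype the labels give as control. All were 4 months old and of mixed C57Bl/6J X OLA129 background, and each group had 1 array. The sources used here do not give the allele, any pooling of animals or sites, or the genotype of the conceptuses. With 1 array per genotype there is no replicate check and no test, so the differences below describe 2 arrays, and their number limits the precision.

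Granzymes are serine proteases that cytotoxic lymphocytes release together with perforin, whose pores in the membrane of a target cell let the proteases act inside it. Serglycin is the proteoglycan on which these positively charged proteins are packed in the granule. In the mouse, NK cells become abundant in the decidua, the transformed stroma around the conceptus, soon after implantation, and they are known for large granules and for their part in remodelling the spiral arteries.

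Granzymes and perforin gave lower signal in Cbs null sites than in control sites, while serglycin and Gzmk differed little. A probe set is called measured below where the mean of its 2 signals was at least 70.5, the median of that mean over all probe sets, and 12 of the 13 were. All 12 had both signals above that value, so none was measured through 1 array alone. All 12 had a log2 ratio of Cbs null over control below 0, against 47% of all 11315 measured probe sets. At least 2-fold lower were 6 of them, covering Gzma, Gzmc, Gzmd, Gzme and Gzmg, against 0.336% of all measured probe sets. At least 1.5-fold lower were 10 of 12, against 1.65% in all. The median log2 ratio was -1.02 over the 12 (lowest -1.46, highest -0.12), beside 0.01 over all measured probe sets. Without probe sets whose names end in _s_at, _x_at or _a_at, marks of a possible match to several transcripts, 3 of 8 were at least 2-fold lower. The 8 still included the probe set that names both Gzme and Gzmd. Without the probe sets of Gzmc to Gzmg, a choice made after the values were seen, it was 1 of 5, and the median was -0.77. In a bulk sample, fewer NK cells and less granzyme RNA per NK cell cannot be told apart.

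**Figure D1:**
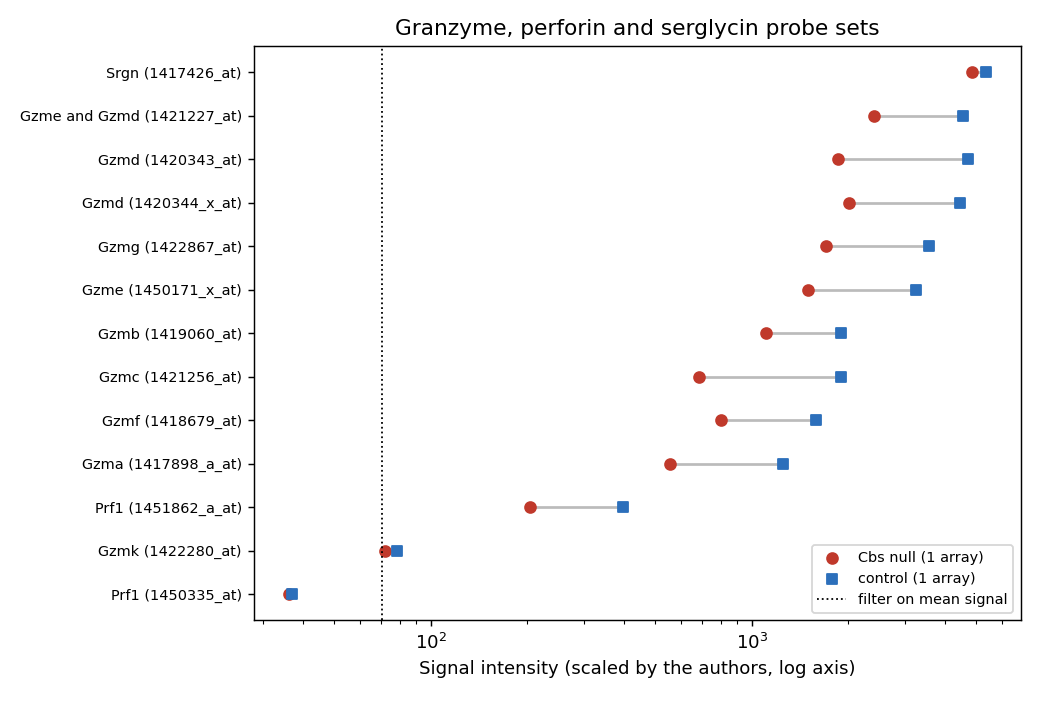
Signal intensity on a log axis for each of the 13 probe sets, with Cbs null as red circles, control as blue squares and the filter of 70.5 as a dotted line. The circles of Gzma to Gzmg and of the measured Prf1 probe set lie left of the squares, whereas those of Srgn, Gzmk and the dim Prf1 probe set lie close to them.

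Gzmc, Gzmd, Gzme, Gzmf and Gzmg, close relatives that mice carry beside Gzmb on chromosome 14, were all lower in Cbs null sites. Gzmc had 686.9 in Cbs null sites, against 1892.5 in control sites. Its Cbs null signal was 36.3% of the control signal, a log2 ratio of -1.46 and the lowest of the family. Gzmd is read by 2 probe sets of its own. The first had 1857.0 in Cbs null and 4720.7 in control, and the second had 2013.6 in Cbs null and 4468.7 in control. Their log2 ratios of -1.35 and -1.15 differed by 0.20, less than the SD of 0.26 that such differences had over the 644 genes whose 2 brightest probe sets both lay in the brightest tertile of signal.

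Gzme had 1492.9 in Cbs null sites and 3258.3 in control sites, a log2 ratio of -1.13. The probe set shared by Gzme and Gzmd had 2398.6 in Cbs null and 4565.9 in control, and its log2 ratio of -0.93 was nearer 0 than those of the 3 probe sets that name either gene alone. The genes are so alike that a probe set may read its relatives too, and how much of each signal belongs to each gene was not tested. Gzmg had 1703.6 in Cbs null sites and 3578.4 in control sites, a log2 ratio of -1.07. Gzmf was just short of the 2-fold limit, with 802.5 in Cbs null sites, 1582.0 in control sites and a log2 ratio of -0.98. All 7 probe sets of Gzmc to Gzmg were thus lower in Cbs null, between -1.46 and -0.93, with a median of -1.13.

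The likeness of Gzmc to Gzmg extends to their promoters. RefSeq windows of assembly GRCm38.p6, running from 250 bases before to 50 bases after the start of transcription, were found for all 10 genes. Among the 10 pairs of Gzmc to Gzmg, 79.7% to 93.7% of the 300 bases were identical and aligned, and Gzmd and Gzme were the most alike. The other 35 pairs of the 10 genes aligned over at most 13 bases. Mismatches and inner gaps were penalised but end gaps were free, so unlike windows slid past each other. The values of these pairs are thus no measure of identity over the full windows. The windows of Gzmc and Gzmd, the 2 genes with the lowest ratios, are shown with that of Gzmb, their neighbour with the ratio nearest 0, and with that of Gzma, which lies on chromosome 13 and was lowered to a like degree. All 4 are on the minus strand and read 5′ to 3′. Capitals mark the core bound by Runx transcription factors, TGTGGT or its reverse complement, and the palindrome of the cAMP response element, TGACGTCA.
Gzmc, chr14:56234608-56234907: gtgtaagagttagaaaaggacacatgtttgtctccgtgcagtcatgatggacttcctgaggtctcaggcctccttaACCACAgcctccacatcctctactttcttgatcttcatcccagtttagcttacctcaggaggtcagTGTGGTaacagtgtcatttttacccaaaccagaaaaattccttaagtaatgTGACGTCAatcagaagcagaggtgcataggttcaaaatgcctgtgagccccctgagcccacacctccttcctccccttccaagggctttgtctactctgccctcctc
Gzmd, chr14:56132544-56132843: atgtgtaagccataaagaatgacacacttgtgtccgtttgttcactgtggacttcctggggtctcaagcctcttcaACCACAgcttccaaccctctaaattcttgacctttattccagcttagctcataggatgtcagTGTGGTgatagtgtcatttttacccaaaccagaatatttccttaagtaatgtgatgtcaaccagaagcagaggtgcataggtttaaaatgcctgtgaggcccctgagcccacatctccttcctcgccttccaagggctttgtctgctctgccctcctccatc
Gzmb, chr14:56262285-56262584: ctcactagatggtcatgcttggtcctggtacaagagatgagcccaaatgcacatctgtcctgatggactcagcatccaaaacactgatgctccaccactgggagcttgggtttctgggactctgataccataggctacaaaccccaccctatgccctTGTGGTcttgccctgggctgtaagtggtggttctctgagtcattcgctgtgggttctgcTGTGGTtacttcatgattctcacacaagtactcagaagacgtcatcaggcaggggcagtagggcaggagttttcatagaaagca
Gzma, chr13:113100932-113101231: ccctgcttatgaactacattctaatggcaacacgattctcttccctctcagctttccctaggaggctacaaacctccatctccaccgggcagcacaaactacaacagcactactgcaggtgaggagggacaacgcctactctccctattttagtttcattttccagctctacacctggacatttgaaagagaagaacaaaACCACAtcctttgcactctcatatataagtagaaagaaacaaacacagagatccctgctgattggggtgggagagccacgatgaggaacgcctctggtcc

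The Runx core was found on either strand in the windows of 9 of the 10 genes, Gzmk being the exception, and 16.8% of all 32851 RefSeq mouse promoter windows of that length hold it. For Srgn, which has 2 windows, the match lies in the second. Gzmb and each of Gzmc to Gzmg held 2 matches. The palindrome TGACGTCA was found in 3 genes, Gzmc, Gzmf and Gzmg, and in 1.79% of all windows. The aligned stretches below show those 8 bases in capitals in each of the 5 relatives, all on the minus strand of GRCm38.p6.
Gzmc, chr14:56234695-56234726: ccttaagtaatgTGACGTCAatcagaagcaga
Gzmf, chr14:56211470-56211501: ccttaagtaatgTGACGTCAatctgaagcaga
Gzmg, chr14:56159637-56159668: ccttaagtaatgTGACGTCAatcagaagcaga
Gzmd, chr14:56132635-56132666: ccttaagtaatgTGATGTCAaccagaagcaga
Gzme, chr14:56120668-56120699: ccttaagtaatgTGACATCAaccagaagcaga
Counted from 1 at the 5′ end of the capitals, Gzmd carries C4T and Gzme carries G5A relative to Gzmc. Genes with the palindrome had log2 ratios of -1.46 (Gzmc), -0.98 (Gzmf) and -1.07 (Gzmg). Those without it had -1.35 and -1.15 (Gzmd, its 2 probe sets), -1.13 (Gzme) and -0.93 (the probe set that names both). The values of the 2 sets thus overlapped, and each probe set may also read relatives of the gene it names. The AP-1 site TGANTCA was found on either strand in Gzmb alone, and in 7.81% of all windows. The ETS core GGAAGT was found in 8 of the 10 genes and in 23.8% of all windows, and the T-box half-site AGGTGTGA in none of the 10 and in 1.28% of all windows. Gzmc to Gzmg, whose windows are largely identical, supplied 5 of the 9 genes with a Runx core and 5 of the 8 with an ETS core. All 3 genes with the palindrome are also among them. The counts are thus not of independent windows, and the shares over all windows are no direct yardstick for them. In these windows no match of 1 of the 5 motifs overlapped a match of another. A match of letters is not evidence that a factor binds there.

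**Figure D2:**
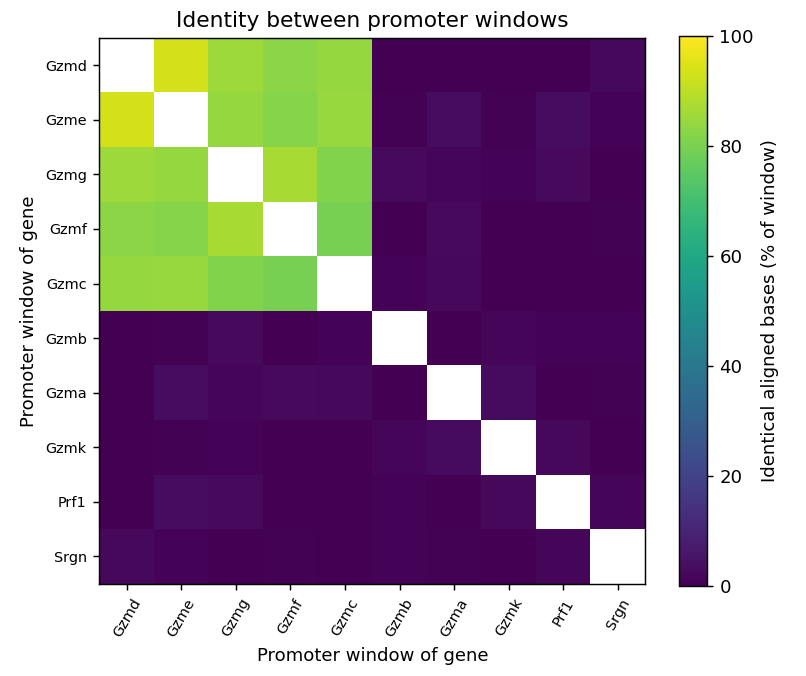
Identical aligned bases between promoter windows as a percentage of the 300 bases, for each pair of the 10 genes on both axes. Gzmd, Gzme, Gzmg, Gzmf and Gzmc form 1 bright block, from 79.7% to 93.7%, and all other pairs lie near 0. End gaps were free, so values near 0 mean that the windows did not align, not that they share no bases.

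Gzmb, which cleaves after aspartate and activates caspases in target cells, had 1110.0 in Cbs null sites and 1892.2 in control sites. Its signal was 58.7% of control, a log2 ratio of -0.77. That was 0.69 nearer to 0 than Gzmc, the lowest of the family, a gap wider than the SD of 0.26 between probe sets of 1 gene. Gzmc also differed by 0.48 from Gzmf and by 0.53 from the probe set shared by Gzme and Gzmd. Both gaps are wider than that SD too, so the gap to Gzmc does not set Gzmb apart from Gzmc to Gzmg. Gzma, a trypsin-like granzyme that cleaves after basic residues, had 557.4 in Cbs null sites and 1247.7 in control sites. Gzma therefore stood at 44.7% of control, a log2 ratio of -1.16, within the range of Gzmc to Gzmg although its sequence is not among their close relatives.

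Gzmk, the other trypsin-like granzyme, which T cells also carry, was dim. It had 72.1 in Cbs null sites and 78.5 in control sites, close to the filter, with a log2 ratio of -0.12. A ratio that low or lower was held by 25.6% of measured probe sets, so Gzmk did not stand apart from the rest. The 2 granzymes of the mouse outside these 10 genes, Gzmm and Gzmn, lay under 14.3 on both arrays, the floor below which signals carry no ratio here. Gzmm had 11.0 in Cbs null and 13.3 in control, and Gzmn had 0.6 in Cbs null and 1.0 in control.

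Perforin was read by 2 probe sets. The brighter had 204.0 in Cbs null sites and 397.4 in control sites, 51.3% of control and a log2 ratio of -0.96. The other had 36.2 in Cbs null and 37.0 in control, under the filter on both arrays, with a log2 ratio of -0.03. The lower signal of perforin thus rests on 1 probe set of a kind that may match several transcripts.

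Serglycin had 4859.5 in Cbs null sites and 5355.3 in control sites, 90.7% of control and a log2 ratio of -0.14. Of all measured probe sets 23.1% had a ratio as low. Serglycin is also made by macrophages, mast cells, platelets and endothelium, so its transcript is not particular to NK cells. It was the only 1 of the 10 genes in the brightest tertile of signal with a ratio inside the range from -0.46 to 0.47 that held 95% of that tertile.

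**Figure D3:**
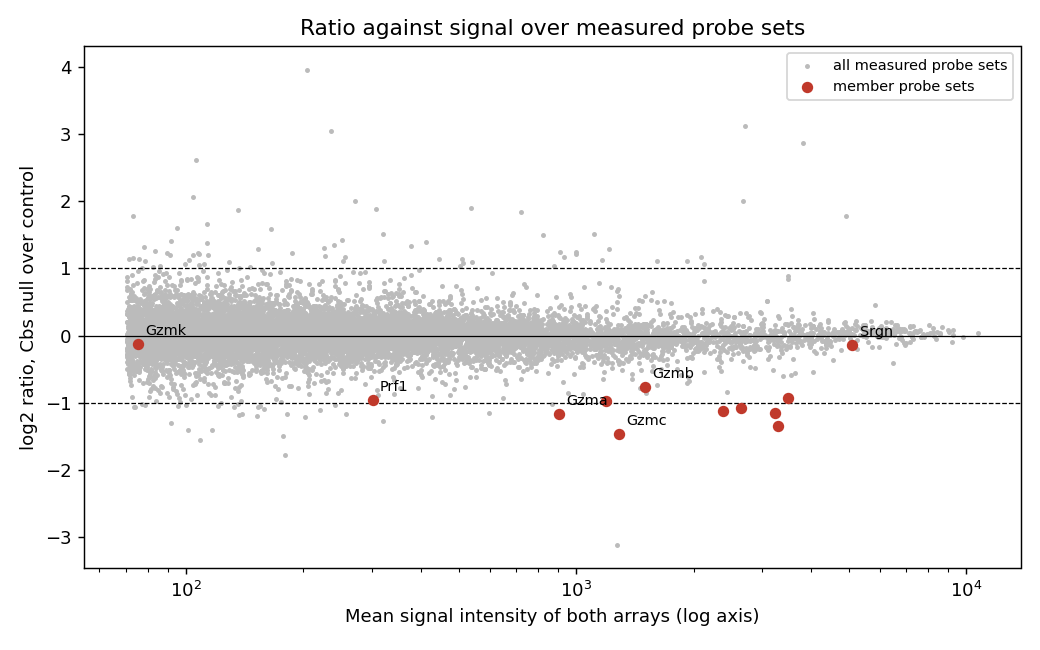
The log2 ratio (Cbs null over control) against the mean signal of both arrays (log axis) for 11315 measured probe sets in grey, with the 12 granzyme, perforin and serglycin probe sets in red and 2-fold limits dashed. Most red points form a group near -1, below most grey points, while Srgn and Gzmk lie within the grey band.

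The brightest tertile held 3772 measured probe sets, of which 10 were at least 2-fold lower. Granzymes were 6 of these 10, and the other 4, named after their values were seen, were probe sets of Rps9, Bmp2, Dmkn and Tdo2. The Rps9 probe set, of a ribosomal protein gene and with a name ending in _x_at, had 263.6 in Cbs null and 2277.7 in control. Its log2 ratio of -3.11 is not that of the brightest Rps9 probe set. With each measured gene represented by its brightest, no ratio was lower than -1.78. Of all 38 probe sets at least 2-fold lower, the granzymes made up 15.8%. Their share of measured probe sets, with perforin and serglycin counted in, was 0.106%. The 6 other genes whose ratio lay closest to the median of the 12 probe sets were Cadm3 (-1.02), Rgs16 (-1.02), Myef2 (-1.04), Ankrd40 (-1.05), Endod1 (-1) and Ppp1r37 (-1.06). Across 2 arrays this likeness is a likeness of size only. Rgs16, with 51.0 in Cbs null and 103.1 in control, and Ankrd40, with 62.1 in Cbs null and 128.4 in control, passed the filter through the control array alone. Further probe sets of Cadm3 and Ankrd40 gave ratios as near to 0 as -0.28 and 0.02.

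The granzymes of chromosome 14 lie in a cluster with chymases and other proteases of mast cells. Its measured genes, all at the granzyme end, had lower signal in Cbs null sites. In RefSeq order the protein-coding genes run from Cma1 through the Mcpt genes to Ctsg, Gzme, Gzmd, Gzmg, Gzmn, Gzmf, Gzmc and Gzmb. Ctsg, cathepsin G, a neutrophil and mast cell protease next to Gzme, had 93.1 in Cbs null sites and 183.0 in control sites, a log2 ratio of -0.97. Gzmn, which lies among the lowered granzymes, gave almost no signal on either array. Cma1, a mast cell chymase, had 56.0 in Cbs null and 80.1 in control, and Mcpt4 had 21.7 in Cbs null and 48.9 in control. Mcpt8 had 22.7 in Cbs null and 29.2 in control, and all 3 were under the filter. Mcpt1 and Mcpt2 lay under the floor on both arrays. Because no gene from Cma1 to Mcpt8 was measured, how far lower signal reached into that end is not known. On the far side of Gzmb, Atp12a had 192.6 in Cbs null and 160.3 in control, a log2 ratio of 0.26. Around the other genes, 2 measured neighbours of Gzma and Gzmk had ratios of -0.18 and 0.04, 3 of Prf1 ranged from -0.31 to 0.23, and 4 of Srgn from -0.24 to 0.10. None of the genes flanking these 3 loci that was measured was 1.5-fold apart.

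**Figure D4:**
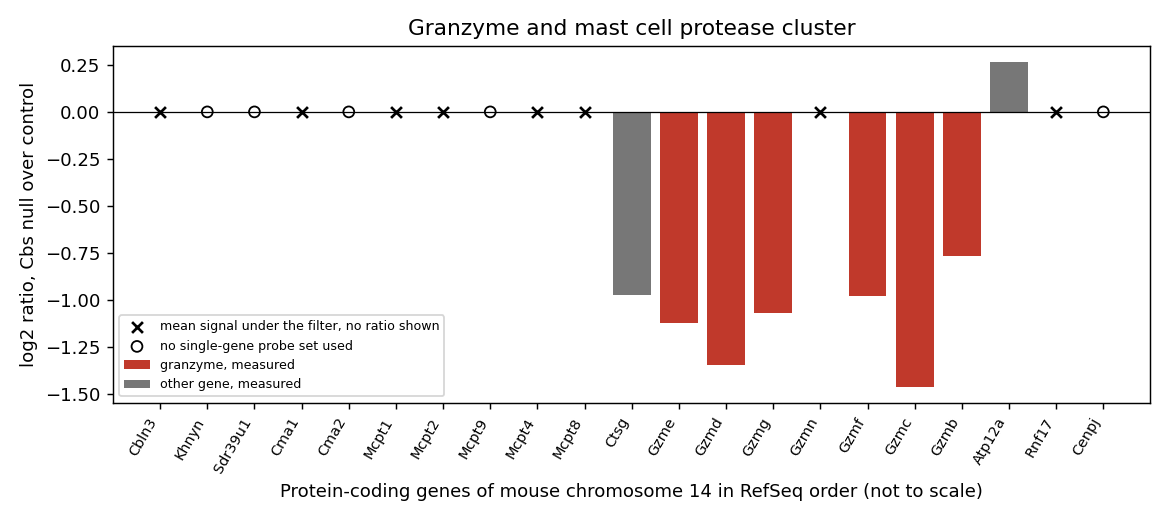
Log2 ratios, Cbs null over control, for 21 protein-coding genes of chromosome 14 in RefSeq order, evenly spaced, with granzymes in red and other measured genes in grey. Crosses mark genes under the filter and open circles genes with no single-gene probe set in use. Ratios from -1.46 to -0.77 run from Ctsg to Gzmb except at Gzmn, and Atp12a lies at 0.26.

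Of 21 listed symbols of genes that mark NK cells, 18 had a probe set of their own and 10 were measured, each represented by its brightest. The list holds Cd244 beside its current symbol Cd244a, and only the latter names a probe set. Signal was lower in Cbs null sites in 10 of the 18 and higher in 8. The measured genes had a median log2 ratio of -0.54, which was -0.31 over all 18 without a filter and -0.21 over the 3 left with the filter at the 75th percentile. Of the measured genes 8 of 10 were below 0, against 44.9% of all 7079 measured genes. At least 1.5-fold lower were 4, against 1.33% in all, and none was 2-fold lower, against 0.283%. The lowest was Il2rb, a receptor chain for interleukins 2 and 15, with 61.1 in Cbs null and 110.5 in control (-0.85), although its other measured probe set had -0.32. Il2rb passed the filter through the control array alone, and the 9 genes over it on both arrays had a median of -0.50, with 7 below 0 and 3 at least 1.5-fold lower. Klrg1, an inhibitory receptor, had 181.6 in Cbs null and 318.6 in control (-0.81). In contrast, the adaptor Tyrobp, which myeloid cells share, had 716.0 in Cbs null and 691.7 in control, and the activating receptor Klrk1 had 76.5 in Cbs null and 73.9 in control, each at 0.05. Of the 8 genes under the filter, 6 had higher and 2 had lower signal in Cbs null. Ncr1 had 67.5 in Cbs null and 56.4 in control, and Tbx21 had 16.2 in Cbs null and 15.5 in control. Summed over the 18 genes, those under the filter included, signal was 2058.3 in Cbs null and 2462.0 in control, and without Tyrobp it was 1342.3 in Cbs null and 1770.3 in control. The difference between granzymes and NK cell markers was not tested.

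The machinery that makes, loads and releases cytotoxic granules lay near 0. Of 19 listed genes 13 were measured, with a median log2 ratio of -0.01, 7 below 0, 6 above 0 and none 1.5-fold apart. Over all measured genes the median was 0.02, with 1.33% at least 1.5-fold lower and 2.47% at least 1.5-fold higher. Ctsc, the peptidase that removes the propeptide of granzymes, had 1482.8 in Cbs null and 1409.2 in control (0.07). The calcium-binding chaperone Calr had 3957.2 in Cbs null and 4045.9 in control, and Lamp1, a membrane protein of lysosomes and granules, had 1950.6 in Cbs null and 1969.9 in control. The highest was Lyst, a regulator of granule size, with 121.9 in Cbs null and 101.8 in control (0.26). Lowest was Cst7, a cathepsin inhibitor of lymphocytes that dampens Ctsc, with 67.2 in Cbs null and 95.4 in control (-0.51), and it passed the filter through the control array alone. Most of these genes, unlike the granzymes, are used by many cell types.

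The listed serpins, granzyme inhibitors and relatives of such inhibitors, were all below 0, 1 of 5 by at least 1.5-fold, with a median of -0.47. Over all measured genes 44.9% were below 0 and 1.33% at least 1.5-fold lower. Serpinb9b, a relative of the granzyme B inhibitor Serpinb9, had 116.0 in Cbs null and 223.7 in control (-0.95). Serpinb9 itself had 379.8 in Cbs null and 543.9 in control (-0.52). Serpinb6b, an inhibitor of granzyme A in the mouse, had 872.4 in Cbs null and 1205.8 in control (-0.47). Serpinb6a had -0.25, and Serpina3n, a secreted inhibitor of granzyme B, had -0.11.

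**Figure D5:**
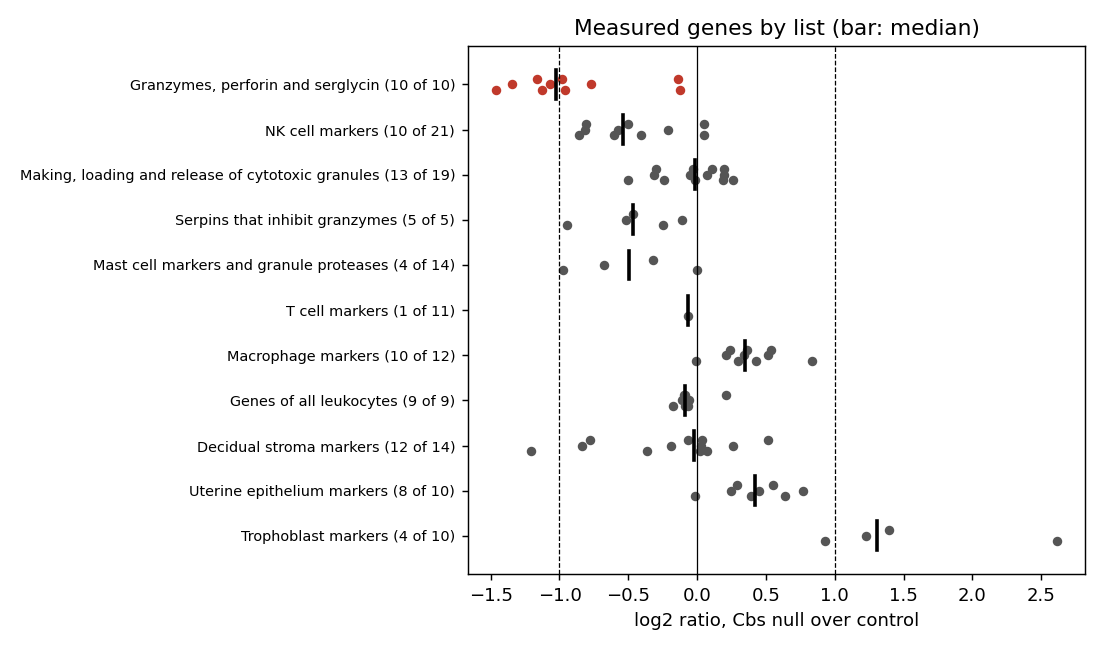
Log2 ratios, Cbs null over control, for each measured gene, 1 point per gene, by gene list from top to bottom. The median is a black bar, and the numbers of measured genes and of listed symbols are in brackets. The granzyme, perforin and serglycin list lies lowest at a median of -1.02, NK cell markers at -0.54 and serpins at -0.47, while macrophage, epithelium and trophoblast markers lie above 0.

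Markers of other cells moved on the same arrays, and their part in the granzyme result was not tested. T cells, the other main source of granzymes, left little signal: Cd3d, Cd3e, Cd4, Cd8a and Cd8b1 were under the floor of 14.3 on both arrays, and only Thy1, which stromal cells also carry, was measured, with 767.7 in Cbs null and 805.1 in control. The 10 T cell genes on the array summed to 876.5 in Cbs null and 931.3 in control, most of which was the signal of Thy1. Of 14 mast cell genes 4 were measured, with a median of -0.50, Ctsg lowest and Hdc, which makes histamine, highest at 0.00. Kit, the stem cell factor receptor, had 127.4 in Cbs null and 203.3 in control (-0.67). Fcer1a, Ms4a2, Mcpt1 and Mcpt2 were under the floor, and the 13 genes with a probe set summed to 662.3 in Cbs null and 915.5 in control. Genes of all leukocytes lay near 0, with a median of -0.09 over 9 genes, the extremes being Rac2 at -0.18 and Itgb2 at 0.21, and sums of 3262.9 in Cbs null and 3423.4 in control. Ptprc, the common leukocyte antigen, had 521.8 in Cbs null and 545.8 in control, and Cd52 had 602.9 in Cbs null and 639.6 in control. Macrophage markers were higher, with 9 of 10 measured genes above 0, against 55% of all measured genes, a median of 0.35 and sums of 6086.4 in Cbs null and 4696.1 in control. They ran from Adgre1 at -0.00 to Cd68 at 0.83, with Lyz2 at 0.54 and Csf1r at 0.21.

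Of 12 measured markers of the decidual stroma, in which the NK cells lie, 6 were below 0, against 44.9% of all measured genes, and the median was -0.02. At least 1.5-fold lower were 3 of the 12, against 1.33%, and none was 1.5-fold higher, against 2.47%. The growth factor Bmp2 had 258.0 in Cbs null and 597.0 in control (-1.21). Tdo2 and Fst were named after their values were seen. Tdo2, which breaks down tryptophan, had 1750.3 in Cbs null and 3129.5 in control (-0.84), and its other probe set had -1.01. Fst, follistatin, which binds activin, had 1071.8 in Cbs null and 1838.3 in control (-0.78). Gja1, connexin 43, which joins decidual cells, had 3980.9 in Cbs null and 5126.9 in control (-0.36), although its dimmest measured probe set had 1.38. Prl8a2, a decidual prolactin, had 3633.6 in Cbs null and 2542.7 in control (0.52). The sums of the decidual list were 14721.8 in Cbs null and 17209.4 in control. Epithelium markers were above 0 in 7 of 8 measured genes, against the same 55%, with a median of 0.42. They summed to 4013.6 in Cbs null and 2920.9 in control. They ran from Cdh1 at -0.02 to Cldn3 at 0.77, with Wfdc2 at 0.45 and Krt18 at 0.64. Because the sites held the conceptus too, whether uterus or conceptus gave this signal cannot be told apart. Trophoblast markers summed to 1095.1 in Cbs null and 431.2 in control, over the 7 of 10 listed genes with a probe set of their own. Under the filter were 3 of the 7, with no higher signal over the floor in Cbs null. By its brightest probe set, Ascl2 had 24.4 on both arrays. Hand1 had 19.6 in Cbs null and 21.5 in control, and Cdx2 was under the floor. Of the 4 measured trophoblast genes, Prl2b1, Prl4a1 and Ceacam11 passed the filter through the Cbs null array alone, and had 1.23, 0.93 and 2.62. Tpbpa, a spongiotrophoblast marker, had 598.7 in Cbs null and 228.1 in control (1.39). Most measured markers of epithelium and macrophages, and Tpbpa, thus differed between the 2 arrays in the opposite direction to the granzymes. The Cbs probe sets had 23.8 and 22.3 in Cbs null and 30.3 and 29.9 in control, under the filter, and because the deleted part of the gene is not stated they do not check the genotype.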

How the data were processed

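Total RNA of implantation sites was labelled as biotinylated cRNA and hybridised to Affymetrix arrays, 1 per genotype, per the labels' protocols. The authors deposited 1 signal intensity per probe set and array on a linear scale, and the submitters' processing notes name GCOS 1.4. The sources used here name no algorithm, detection calls or genome build. The 2% trimmed mean was 200.08 on both arrays, so no further scaling was applied.

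Of 22690 probe sets, 64 controls were left out. Names came from the platform annotation, updated through gene identifiers to RefSeq (GRCm38.p6), and all 13 granzyme, perforin and serglycin probe sets matched. Signals under a floor of 14.3, the 25th percentile, were raised to it before taking log2 ratios (Cbs null over control). Probe sets with a mean signal of at least 70.5 were kept, 11315 in all and 7079 genes. Other lists used the brightest probe set per gene. No test was made. Brightness served only to choose probe sets and genes and to form tertiles, and sums over a list add probe sets that differ in how they hybridise.

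Named are all granzyme, perforin and serglycin probe sets and, of each of 11 other lists, members at least 2-fold apart, the highest, the lowest and the 2 brightest. Others are examples chosen after their values were seen. The genes and lists were chosen with earlier results of these data known. Scripts (Python 3.11, Biopython 1.88 for alignment) were tested on simulated data. Alternatives were other scalings, floors, filters and choices of probe set.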

Additional observations from a re-analysis of the deposited data

How the results depend on the processing

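Each of 13 alternatives left the median log2 ratio of the measured granzyme, perforin and serglycin probe sets below 0. The 12 planned ones gave -1.07 to -0.95, and leaving out the probe sets of Gzmc to Gzmg, chosen after seeing the data, gave -0.77. In the absence of replicates, a value was held to have moved where it shifted by at least 0.30, the SD between the 2 brightest probe sets of a gene. By that measure none of 78 values of single probe sets under 6 scalings and floors moved, and 12 of 13 probe sets stayed below 0 in each of them. Part of this was fixed beforehand. Floors at other percentiles left all 12 measured probe sets unchanged, and median centring lowered every ratio by the same 0.01. These settings therefore could not have moved a measured probe set. The dim Prf1 probe set reached 0 with a floor at the 40th percentile. The count of probe sets at least 2-fold lower was 6 of 12, and was 3 of 8 without probe sets ending in _s_at, _x_at or _a_at and 1 of 5 without those of Gzmc to Gzmg, both with fewer probe sets counted. Of 109 list medians 3 moved, each with another number of genes measured. The NK cell marker median was -0.21 over 3 genes with the filter at the 75th percentile, against -0.54. Without a filter the mast cell median was -0.19 over 13 genes, against -0.50, and the trophoblast median 0.93 over 7, against 1.31. No mast cell gene passed the filter at the 75th percentile, and Gzmm and Gzmn gave no list median. No paired analysis was possible because each group had 1 array. Signal over background limits Gzmk, the dim Prf1 probe set and most specific NK cell markers.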
